A study of Homo sapiens with 118 samples.

Results

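The comparison described here was between HepaRG cells exposed to 1.595 µM mocetinostat, the middle concentration of the series (C3), and HepaRG cells exposed to 0.177222 µM, the lowest (C1). The libraries were taken by their concentration label, 3 at C3 and 3 at C1, which were 6 of the 118 libraries of the series and 6 of the 15 mocetinostat libraries. The series set 8 histone deacetylase inhibitors at 5 concentrations against gene expression in HepaRG, an established human liver cell line, in search of transcripts that classify such inhibitors. Cryopreserved, already differentiated cells were thawed, kept for a week on collagen, and then exposed for 72 hours with the chemical renewed daily. All 6 libraries shared this handling, lay on the same plate, and came from 3 batches of HepaRG cells, so that replicates 1, 2 and 3 of each group were 1 library from each batch. Both groups were therefore treated groups of a single line, the C1 cells had also received mocetinostat, and a change complete at C1 would not appear; solvent control libraries were not used here. Lysates were read by TempO-Seq, which ligates paired detector probes on their target transcript and counts the products by sequencing, and each probe pair is a feature in what follows. Levels are CPM, the counts of a probe over the library total after scaling, and a level of 1 probe was not set against that of another.

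Histone deacetylases remove acetyl groups from histone tails and other proteins, and the class I enzymes HDAC1, HDAC2 and HDAC3 act as the catalytic part of corepressor complexes such as Sin3, NuRD, CoREST and NCoR/SMRT. Mocetinostat is a benzamide, a kind of inhibitor that binds the zinc of the active site and favours class I enzymes. Differentiated HepaRG cultures hold hepatocyte-like and biliary-like cells and are used in toxicology because they keep much of the drug metabolism of hepatocytes, which rests on a network of transcription factors around HNF4A.

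Total counts were between 4023177 and 5220707 at C1 and between 3601315 and 4668066 at C3 (exact two-sided permutation test, p = 0.4, where 0.1 is the smallest that 3 against 3 allows). Replicate 1 of C3 stood apart from its group, with Spearman correlations of 0.899 and 0.910 to replicates 2 and 3, which correlated with each other at 0.967, while the C1 libraries lay between 0.958 and 0.972. In the same fit, C2 replicate 1 correlated at only 0.824 with C2 replicate 3, and C2 replicate 2 at 0.890. C2 replicate 3 lay at 0.958 to 0.969 with the C1 libraries. C2 replicates 1 and 2 correlated at 0.956 with each other and at 0.898 and 0.932 with C3 replicate 1. What C2 replicates 1 and 2 share with C3 replicate 1 was not tested. Results that rest on C3 replicate 1 are given with and without it. The labels call the cell type liver progenitor cells. Of 10 hepatocyte markers all were above 3 counts, and their summed level was 44379 to 58089 CPM at C1 and 16546 to 24208 CPM at C3. The biliary and progenitor markers summed to 85.4 to 149 CPM at C1 and 141 to 223 CPM at C3, with 4 of 7 above 3 counts and CFTR at 0, and the 5 stromal markers to 174 to 251 CPM and 178 to 186 CPM. Over the longer lists used further on the order was not the same. The 14 tested probes for biliary and progenitor markers summed to 1077 to 1139.7 CPM at C1 and 756 to 881 CPM at C3, lower without overlap. MMP7 alone averaged 328 CPM at C1 and 104 CPM at C3, and the median log2 change of the 14 probes was 0.12. The 34 tested stromal and mesenchymal probes summed to 5050.1 to 6477 CPM and 5881 to 8597 CPM. The endothelial marker CDH5 and the blood cell markers PTPRC, CD3E and TYROBP had 0 counts in all 6 libraries, and CD68 alone of the blood cell markers was above 3 counts.

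**Figure D1:**
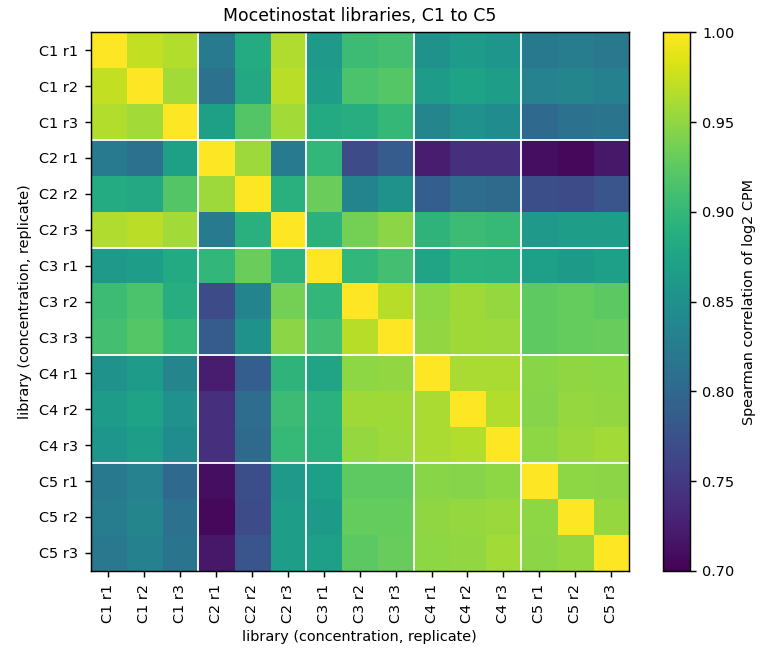
Spearman correlation of log2 CPM between the 15 mocetinostat libraries, ordered by concentration (C1 to C5) and replicate, with white lines between concentrations. C3 replicate 1 correlated less with its group mates (0.899 and 0.910) than these did with each other (0.967), and C2 replicates 1 and 2 also stood apart from C2 replicate 3.

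At 1.595 µM, 842 features were higher (6.44% of 13065 tested) and 671 were lower (5.14%) than at 0.177222 µM, 1513 in all (11.6%). The threshold for a call was an adjusted p under 0.05 (edgeR quasi-likelihood test, Benjamini-Hochberg) together with a fitted fold change of at least 1.5. Of the 1513 called, 1506 differed in the same direction in all 3 batches, and 240 were higher and 279 lower by a fitted change of over 4-fold. Of the called features, 66 had at most 3 counts in every C1 library and 24 in every C3 library. For these the fitted change is no measured fold. The median log2 change over all tested features was 0.07, with quartiles of -0.44 and 0.55. The CPM of the 3 C3 and the 3 C1 libraries did not overlap in 4138 of the tested features (31.7%). Lack of overlap, given below for single features, is therefore common and weaker than a call. Without C3 replicate 1, 567 features were higher and 629 lower, and 1060 of the 1513 were called again. The replicates of a group differ in cell batch but belong to a single line. The p-values measure the spread between libraries within the mocetinostat groups, fitted without a batch term, so batches and single libraries are not separated. That spread includes C3 replicate 1 and the C2 replicates that stood apart.

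**Figure D2:**
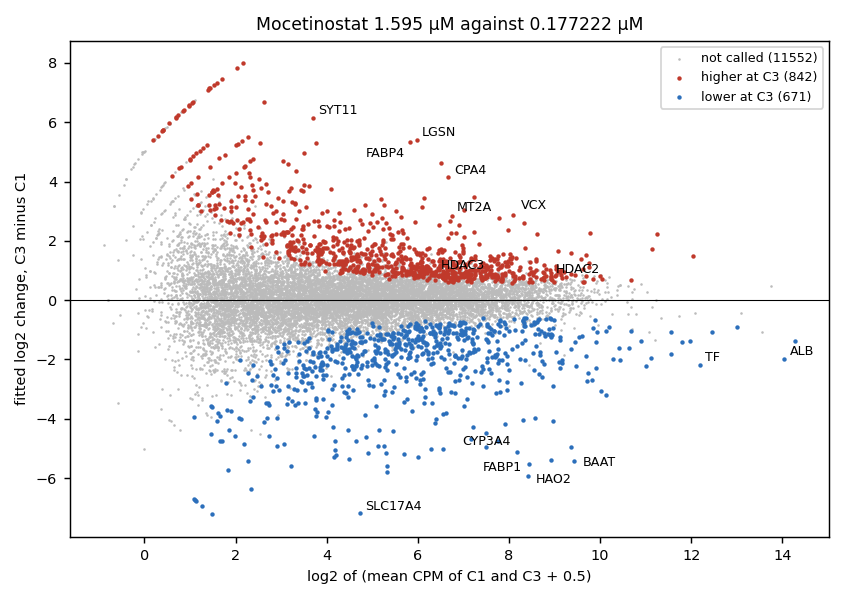
Fitted log2 change of C3 against C1 (vertical) by the log2 of the mean CPM of both groups plus 0.5 (horizontal) for the 13065 tested features, with the 842 called higher in red and the 671 called lower in blue. Liver genes such as HAO2, FABP1 and BAAT lie far down among abundant features and LGSN, FABP4 and CPA4 far up, while the streaks at the left edge are features near 0 counts at C1 whose fitted change is no measured fold.

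The features that rose most were at or close to the detection limit at C1. Those near 0 at C1, such as SYT11 and GPR50, passed the filter on low counts through the groups where they are high. Probes near 0 in every group were not tested. SYT11, a synaptotagmin of vesicle trafficking, was at 0.734, 0 and 0.249 CPM in the C1 libraries and 16.5, 29.5 and 27.7 CPM in the C3 libraries. No C1 library held over 3 counts of it, and every C3 library was far above, at least 34.8-fold higher when C1 is set to 3 counts per library (adjusted p = 2.34e-05). LGSN, which encodes lengsin, a lens protein related to glutamine synthetase, was at 2.69, 3.79 and 1.99 CPM in the C1 libraries and 164, 112 and 90.1 CPM in the C3 libraries. The groups did not overlap and the rise was 42.3-fold (log2 change 5.40, SE 0.44, adjusted p = 1.11e-06). FABP4, the fatty acid-binding protein of adipocytes and macrophages, was at 3.43, 0.843 and 3.99 CPM in the C1 libraries and 114, 121 and 94.0 CPM in the C3 libraries. All C3 libraries were alike and well above C1 (log2 change 5.33, SE 0.41, adjusted p = 5.27e-07). GPR50, an orphan receptor related to the melatonin receptors, went from 1.22, 0.632 and 0 CPM to 23.1, 28.1 and 26.1 CPM, a log2 change of 5.30 with SE 0.51.

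Several secreted proteins and inhibitors rose as well. CPA4, a carboxypeptidase first described as a gene induced by deacetylase inhibition, was at 7.83, 13.9 and 10.7 CPM in the C1 libraries and 359, 93.7 and 124 CPM in the C3 libraries. Replicate 1 of C3 was the highest by a wide margin, yet the groups did not overlap, and the log2 change was 4.14 (adjusted p = 1.82e-05) with it and 3.27 (adjusted p = 5.57e-06) without it. The stromelysin MMP10 went from 3.67, 1.48 and 1.74 CPM to 45.6, 26.4 and 20.2 CPM, and SERPINB2, an inhibitor of plasminogen activators, from 11.0, 14.8 and 9.47 CPM to 196, 91.4 and 99.1 CPM. Again C3 replicate 1 was the highest of each, and the log2 changes were 3.73 and 3.45 with it and 3.29 and 2.96 without it. IGFL1, of the insulin growth factor-like family, went the other way among the C3 libraries, with 42.0, 63.3 and 91.7 CPM against 4.65, 5.90 and 7.72 CPM at C1 (log2 change 3.43, SE 0.37). C15orf48, which encodes a small mitochondrial protein, was at 2.94, 10.1 and 7.72 CPM in the C1 libraries and 223, 140.5 and 158 CPM in the C3 libraries (log2 change 4.64). The VCX genes, X-linked and expressed in male germ cells, rose too, with VCX at 68.0, 67.0 and 61.0 CPM at C1 and 334, 496 and 616 CPM at C3, and VCX3B at log2 change 3.47. VCX copies are nearly identical, and which copy a probe reports was not checked.

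The features that fell most were genes of the hepatocyte. FABP1, the liver fatty acid-binding protein, was at 723, 735 and 569 CPM in the C1 libraries and 19.5, 11.3 and 13.1 CPM in the C3 libraries. The lowest C1 library was far above the highest C3 library, and the drop was 46.3-fold (log2 change -5.53, SE 0.31, adjusted p = 6.83e-08), the smallest adjusted p of the comparison. Its other probe gave a log2 change of -5.29. HAO2, a peroxisomal hydroxy acid oxidase, was at 734, 591 and 694 CPM in the C1 libraries and 14.3, 9.56 and 9.47 CPM in the C3 libraries, and the related HAO1 of glyoxylate metabolism went from 32.5, 31.4 and 38.4 CPM to 1.10, 0 and 1.54 CPM. Neither overlapped between groups, with drops of 60.6-fold and 39.1-fold. BAAT, which conjugates bile acids to glycine and taurine, was at 1475, 1201 and 1361 CPM in the C1 libraries and 34.3, 31.9 and 28.4 CPM in the C3 libraries. The C3 libraries were close together, and the drop of 42.6-fold held at an adjusted p of 7.14e-08.

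Transporters and secreted factors of the liver shared this course. SLC17A4, an organic anion transporter, was at 52.1, 56.7 and 46.6 CPM in the C1 libraries and 0.274, 0.425 and 0.256 CPM in the C3 libraries, at most 3 counts in every C3 library. Set against 3 counts per library it was at least 69.7-fold lower at C3 (adjusted p = 2.85e-05). SLC22A7, the organic anion transporter OAT2, went from 93.2, 70.4 and 69.8 CPM to 1.10, 2.13 and 0.768 CPM, a 55.8-fold drop. LEAP2, a liver peptide that antagonises the ghrelin receptor, went from 45.8, 33.7 and 49.8 CPM to 0, 2.13 and 0.768 CPM. SERPINA10, the protein Z-dependent inhibitor of coagulation, fell from 278, 248 and 299 CPM to 9.33, 9.35 and 13.6 CPM (log2 change -4.67, SE 0.31). All of these features, rising and falling, were called again without C3 replicate 1.

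The sequence before the transcription start differed between rising and falling genes in its CG content. The 250 bases before the start were taken from RefSeq (GRCh38.p14) for the 6072 tested genes with 1 probe and a single entry. The median number of CG pairs was 10 in 277 genes called lower, 20 in 400 called higher and 21 over all 6072. At most 5 CG pairs were present in 40.8% of the falling, 15.2% of the rising and 9.8% of all genes. The letters GTTAAT, which occur in the recognition sequence of the hepatocyte factor HNF1, were found on either strand in 13.7% of the falling, 3.5% of the rising and 3.4% of all promoters. TATAAA was found in 14.4%, 10.5% and 5.8%, GGGCGG in 49.8%, 66.8% and 67.4%, and CCAAT in 33.2%, 44.0% and 36.8%, in the same order. The median share of G and C was 59.6% in the falling, 64.4% in the rising and 64.8% in all promoters. These shares are descriptions, without a test and not adjusted for base composition, and a match is no proof of a bound site. Among the features with the largest change or smallest p that had an entry, 3 of 6 that fell and 0 of 10 that rose held GTTAAT. Promoters on 1 chromosome were left out of these 6 and 10. The 3 that fell are printed with LGSN and MT2A, which rose, to show promoters poor and rich in CG pairs. Each runs 5′ to 3′ toward the start, with matches to the 4 motifs on either strand in capitals: FABP1 (chr2:88128063-88128312, minus strand), HAO2 (chr1:119368535-119368784, plus strand), LEAP2 (chr5:132873418-132873667, plus strand), LGSN (chr6:63319984-63320233, minus strand) and MT2A (chr16:56608334-56608583, plus strand).
FABP1: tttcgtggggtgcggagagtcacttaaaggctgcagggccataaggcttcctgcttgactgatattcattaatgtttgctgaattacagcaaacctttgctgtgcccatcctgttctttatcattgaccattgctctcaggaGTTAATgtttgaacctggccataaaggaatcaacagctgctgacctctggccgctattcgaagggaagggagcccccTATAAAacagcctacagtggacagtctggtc
HAO2: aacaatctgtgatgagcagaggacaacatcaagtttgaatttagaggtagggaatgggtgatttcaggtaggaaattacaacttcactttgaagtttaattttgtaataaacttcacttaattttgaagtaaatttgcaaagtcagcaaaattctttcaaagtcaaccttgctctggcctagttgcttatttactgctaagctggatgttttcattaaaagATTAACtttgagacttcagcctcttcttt
LEAP2: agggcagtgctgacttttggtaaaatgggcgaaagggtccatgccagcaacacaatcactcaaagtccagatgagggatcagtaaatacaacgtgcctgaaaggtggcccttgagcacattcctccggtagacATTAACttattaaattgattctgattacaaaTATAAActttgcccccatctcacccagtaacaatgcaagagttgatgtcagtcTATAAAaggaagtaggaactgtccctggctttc
LGSN: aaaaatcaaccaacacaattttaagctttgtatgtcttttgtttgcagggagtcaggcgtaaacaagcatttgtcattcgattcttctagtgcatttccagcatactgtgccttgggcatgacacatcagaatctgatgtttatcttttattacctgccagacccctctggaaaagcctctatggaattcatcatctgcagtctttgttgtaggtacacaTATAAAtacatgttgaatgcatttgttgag
MT2A: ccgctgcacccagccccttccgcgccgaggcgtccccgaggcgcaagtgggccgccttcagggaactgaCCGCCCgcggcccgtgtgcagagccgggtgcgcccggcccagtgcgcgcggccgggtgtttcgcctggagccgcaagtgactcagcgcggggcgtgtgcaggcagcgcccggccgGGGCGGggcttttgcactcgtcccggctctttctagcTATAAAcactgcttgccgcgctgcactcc
FABP1 and HAO2 held 4 and 0 CG pairs and LEAP2 held 3. LGSN, a rising gene, was as poor in them, with 2, whereas MT2A held 32.

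Few features had moved at the concentration between C1 and C3. At 0.531667 µM (C2), 25 features (0.191%) were called against the same C1 libraries, in a group of which replicates 1 and 2 stood apart. The 6 with the smallest p were IGFL3, LGSN, CYP3A4, C15orf48, FABP4 and TSPAN15. IGFL3, a relative of IGFL1, was at 7.58, 11.2 and 11.0 CPM in the C1 libraries and 85.1, 67.8 and 89.4 CPM in the C3 libraries. Its mean was 40.0 CPM at C2 (log2 change 2.01, SE 0.25, adjusted p = 0.0031), so that it lay between the others at C2 and was highest at C3, where the groups did not overlap (log2 change 3.02, SE 0.26, adjusted p = 1.47e-06). TSPAN15, a tetraspanin that escorts the protease ADAM10, was at 14.7, 17.3 and 16.2 CPM in the C1 libraries and 85.9, 71.6 and 94.0 CPM in the C3 libraries and had a mean of 45.7 CPM at C2. CYP3A4, the main drug-oxidising cytochrome P450 of adult liver, was at 583, 637 and 478 CPM in the C1 libraries and 13.2, 21.9 and 13.1 CPM in the C3 libraries. It averaged 107 CPM at C2, where it was the falling member of the 6, and at C3 it was 35.1-fold below C1 (log2 change -5.13, SE 0.35, adjusted p = 1.82e-07).

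The 6 features given for C2 had lower means at C5 than at C3, a difference that passed the test for IGFL3, TSPAN15 and CYP3A4. At 3.9 µM (C5), 932 features (7.13%) differed from C3, in a contrast that shares the C3 libraries. Against C1, 3098 features (23.7%) were called at C4 and 3983 (30.5%) at C5. IGFL3 averaged 80.7 CPM (SD 11.4, n = 3) at C3 and dropped to a mean of 24.1 CPM (log2 change -1.74, SE 0.24, adjusted p = 0.000352), and TSPAN15 from 83.8 to 49.4 CPM (log2 change -0.76, SE 0.21, adjusted p = 0.0354). CYP3A4 went from 16.0 to 4.37 CPM (log2 change -1.86, SE 0.35, adjusted p = 0.00358). LGSN, FABP4 and C15orf48 averaged 73.0, 86.4 and 88.8 CPM at C5, differences from C3 that did not pass (adjusted p = 0.245, 0.605 and 0.12). Of rising features that were not called at C2, MT2A rose further from 382 to 1207 CPM (log2 change 1.66, SE 0.22, adjusted p = 0.000257), MMP10 to 119.6 CPM and SYT11 to 73.9 CPM. Of the falling genes, FABP1 went on from 14.6 to 3.92 CPM (log2 change -1.88, SE 0.31, adjusted p = 0.00143), while for BAAT and HAO2 the further difference did not pass (adjusted p = 0.146 and 0.175). ADH1B, an alcohol dehydrogenase, was at 2008, 216 and 16.6 CPM at C1, C3 and C5, so that its step from C3 to C5 (log2 change -3.69, SE 0.23, adjusted p = 1.31e-07) was of a size with that from C1 to C3 (log2 change -3.21).

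**Figure D3:**
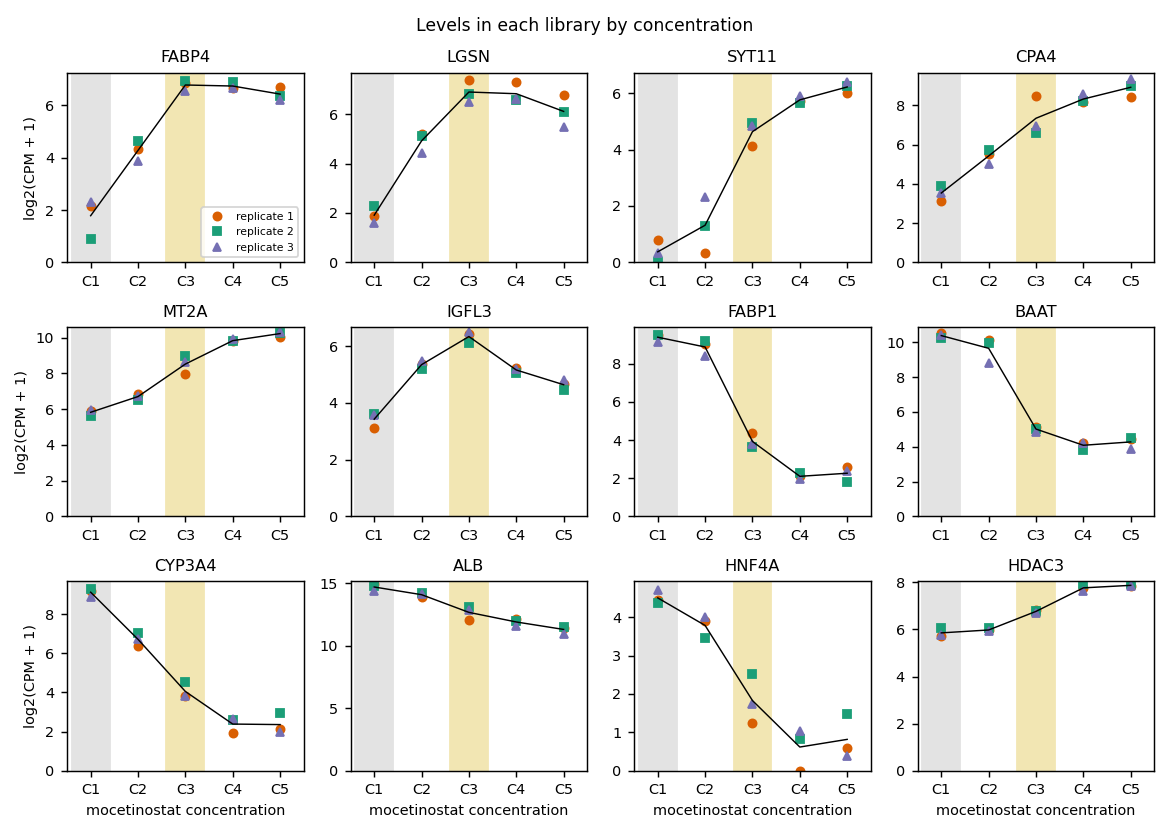
Level of 12 features in every mocetinostat library, as log2(CPM + 1), by concentration (C1 0.177222 µM, C2 0.531667 µM, C3 1.595 µM, C4 2.5 µM, C5 3.9 µM). Colours and shapes mark replicates, lines join group means, grey marks C1 and yellow C3. IGFL3 was highest at C3, FABP4 and LGSN were about as high at C4 as at C3, MT2A, CPA4 and SYT11 were higher still at C5, and FABP1, BAAT, CYP3A4, ALB and HNF4A were lower at C3 than at C1 in every library.

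Of the 4 genes for class I deacetylases, 2 rose (50% called, beside 11.6% of all features). HDAC3, the enzyme of the NCoR/SMRT complexes, was at 52.1, 66.0 and 53.6 CPM in the C1 libraries and 113, 109 and 103 CPM in the C3 libraries. The groups did not overlap and the rise was 1.89-fold (log2 change 0.92, SE 0.18, adjusted p = 0.00283). HDAC2 was at 315, 399 and 342 CPM in the C1 libraries and 693, 569 and 571 CPM in the C3 libraries, 1.74-fold higher (log2 change 0.80, SE 0.16, adjusted p = 0.00395), with C3 replicate 1 the highest and a log2 change of 0.65 without it (adjusted p = 0.0249). HDAC1 was at 19.6, 28.7 and 47.3 CPM in the C1 libraries and 49.4, 33.8 and 23.3 CPM in the C3 libraries, groups that overlapped (log2 change 0.16, SE 0.48, adjusted p = 0.896), and HDAC8 overlapped too (log2 change -0.12, SE 0.47). Of 10 tested probes for the other deacetylases, 2 fell (20% called, beside 11.6% of all features), both for HDAC6, the cytoplasmic tubulin deacetylase. The more abundant of these 2 was at 639, 609.9 and 609.6 CPM in the C1 libraries and 322, 241 and 236 CPM in the C3 libraries (log2 change -1.22, SE 0.21). Another 2 probes of HDAC6 gave log2 changes of -1.11 and -0.97 that did not pass. Of 30 probes for corepressor subunits (median log2 change 0.00) 6.67% were called, below the 11.6% of all features. TBL1X of NCoR/SMRT rose 1.77-fold and CHD3, a NuRD helicase, was 2.53-fold lower, and the other 28 were not called.

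Genes that deacetylase inhibitors are known to raise in many cells moved in part. Of 22 tested probes, 8 were higher and 0 lower (36.4% called, beside 11.6% of all features, and median 0.59, against 0.07 over all features). Probes near 0 at C1, such as SYT11, passed the filter through the groups where they are high, so the count and the median cannot stand for all probes of the list. TXNIP, which binds thioredoxin and restrains glucose uptake, was at 37.2, 41.1 and 31.1 CPM in the C1 libraries and 239.9, 153 and 135 CPM in the C3 libraries. C3 replicate 1 was the highest, and the log2 change of 2.27 was 1.93 without it. HSPA2, a testis-enriched HSP70, was at 2.45, 2.53 and 4.48 CPM in the C1 libraries and 18.1, 17.2 and 18.9 CPM in the C3 libraries, with tight and separate groups (log2 change 2.51, SE 0.34, adjusted p = 0.000127). DHRS2, a short-chain dehydrogenase, rose by both of its probes (log2 changes 2.67 and 3.36), and MT1X, CCN2, KLF6 and SYT11 made up the rest. GLRX, STMN1, CLU, KLF4 and GADD45B were not called, nor was H1F0, the linker histone used as a sign of deacetylase inhibition (log2 change 0.66, SE 0.38). CDKN1A did not pass the filter on low counts.

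Neuronal genes that the repressor REST keeps silent outside neurons rose in part among those detected. Only 16 of 40 probes passed the filter, and 7 were higher and 0 lower (43.8% called, beside 11.6% of all features). The median was 1.93 (1.83 with genes at the floor set to their bound). Since probes near 0 at C1 pass the filter through the groups where they are high, this count cannot stand for all probes of the list. SCG2, a secretogranin of dense-core vesicles, was at 2.45, 0.843 and 0.996 CPM in the C1 libraries and 18.4, 20.2 and 18.7 CPM in the C3 libraries. The C3 libraries were close together and every one was above C1 (log2 change 3.73, SE 0.45, adjusted p = 3.81e-05). GDAP1, a mitochondrial protein linked to neuropathy, rose from a higher level, 33.8, 51.9 and 39.1 to 109, 113 and 101 CPM. NEFL, the light neurofilament, had at most 3 counts in each C1 library and was at least 10.2-fold higher at C3 (adjusted p = 0.00142). Synaptophysin (SYP, both probes) and CALB2 rose too, whereas SNAP25, SYT1, SEZ6L2 and TUBB3 were not called.

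Metallothioneins, small proteins that bind zinc and copper, rose in 5 of 5 tested probes, beside 6.44% of all features. Another 8 probes were under the filter. MT1A, at 0.752 CPM at C1, passed the filter through the groups where it is high, so the count cannot stand for the family. MT2A was at 58.0, 48.9 and 61.3 CPM in the C1 libraries and 251, 497 and 399 CPM in the C3 libraries. C3 replicate 1 was the lowest of its group and still far above C1, and the rise was 6.82-fold (log2 change 2.77, SE 0.23, adjusted p = 1.25e-06). MT1M went from 13.2, 14.5 and 22.7 CPM to 113, 95.4 and 109 CPM (log2 change 2.65), and MT1A, MT1X and MT1E had log2 changes of 3.51, 1.95 and 1.25. The MT1 genes are close copies, so their probes may share targets. HBG1, a fetal globin nearly identical to HBG2, was at 1.47, 0.843 and 1.74 CPM in the C1 libraries and 18.1, 15.3 and 27.7 CPM in the C3 libraries (log2 change 3.89, SE 0.53, adjusted p = 0.000139). It was the 1 tested of 10 globin probes and passed the filter through the groups where it is high, so it cannot stand for the globins. Of 9 probes for germline genes such as the MAGE family none was called (adjusted p of 0.21 or more). Of 9 for histones made outside S phase 11.1% were called, near the 11.6% of all features. H2AFY, the macroH2A variant, rose 1.54-fold (adjusted p = 0.0289), a call lost under 12 of the alternative settings.

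Genes of the hepatocyte fell across most of its functions. Summed levels of hepatocyte markers were lower in every C3 library. Those of 7 biliary and progenitor markers overlapped between groups, and those of the 14 tested probes of the longer list were lower in every C3 library. That longer sum includes MMP7, which averaged 328 CPM at C1 and 104 CPM at C3, while the median log2 change of the 14 probes was 0.12. In a bulk lysate fewer cells of a type cannot be told apart from less RNA per cell. Of 26 probes for secreted plasma proteins, 0 were higher and 21 lower (20 without C3 replicate 1), with a median of -1.88. Of this list 80.8% was called, beside 11.6% of all features. Albumin (ALB) was at 31399, 28685 and 20751 CPM in the C1 libraries and 4214, 8919 and 7274 CPM in the C3 libraries. Replicate 1 of C3 was the lowest, and the log2 change of -1.99 (SE 0.26) was -1.78 without it. Transferrin (TF), the iron carrier, was at 8497, 7155 and 7194 CPM in the C1 libraries and 1258, 1826 and 1990.0 CPM in the C3 libraries, groups far apart (log2 change -2.17, SE 0.20, adjusted p = 2.58e-06), and APOC3, an inhibitor of lipoprotein lipase, fell by 2.21 on the log2 scale. Not all followed: transthyretin (TTR, -0.42), SERPINA1 (-0.54), APOA1 (-0.48) and SAA1 (-0.22) had log2 changes that did not pass, as did FGA (-1.09).

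The transcription factors of the hepatocyte network fell in part. Of 26 probes, 10 were lower and 1 higher (42.3% called, beside 11.6% of all features, median -1.45). HNF4A, at the centre of the network, was at 20.8, 19.6 and 24.9 CPM in the C1 libraries and 1.37, 4.68 and 2.30 CPM in the C3 libraries. The groups did not overlap at these low levels (log2 change -2.93, SE 0.62, adjusted p = 0.00494; -2.67 and adjusted p = 0.0189 without C3 replicate 1). NR1I3, the xenobiotic receptor CAR, went from 44.3, 40.3 and 19.9 CPM to 3.02, 4.89 and 6.14 CPM, NR1I2, the receptor PXR, fell by 3.36 and 2.51 on the log2 scale in its probes, and NR1H4, the bile acid receptor FXR, by 2.86. PROX1, a homeobox factor of liver development, was at 119, 87.3 and 77.2 CPM in the C1 libraries and 26.3, 37.0 and 33.0 CPM in the C3 libraries (log2 change -1.55). ONECUT2 was the member that rose, 2.58-fold, while CEBPB, NR5A2, CEBPA and the FOXA genes were not called.

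Transcripts of drug metabolism, for which these cells are used, were lower in 25 of 40 probes and higher in 0 (22 lower without C3 replicate 1, median -2.09). Of this list 62.5% was called, beside 11.6% of all features. ADH1B, the alcohol dehydrogenase, was at 2114, 2001 and 1909 CPM in the C1 libraries and 182, 265 and 201 CPM in the C3 libraries. It was 9.28-fold lower, with groups far apart (log2 change -3.21, SE 0.22, adjusted p = 1.82e-07). CYP2C8 went from 69.5, 107 and 57.5 CPM to 1.92, 0.850 and 2.05 CPM. CYP3A7 and the first probe of CYP3A5 were also lower (log2 changes -4.27 and -2.75). CYP3A, CYP2C, ADH1 and GSTA genes are close relatives and the match of each probe to a single copy was not checked. UGT1A1, which conjugates bilirubin, had log2 changes of 0.08 and 0.22, and CYP1A1, CYP1A2, CYP2J2 and CES1 were not called either.

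Bile acid genes had the lowest median of the lists with 5 or more tested probes, -2.30. Of 26 probes, 15 were lower and 1 higher (61.5% called, beside 11.6% of all features). Besides BAAT, the synthesis enzymes CYP7A1, which sets the rate of the classic pathway, and CYP8B1 fell by 4.90 and 4.84 on the log2 scale. SLCO2B1, an uptake transporter, was at 352, 300.2 and 378 CPM in the C1 libraries and 22.8, 12.1 and 11.5 CPM in the C3 libraries, highest within C3 in replicate 1 and apart from C1 throughout (log2 change -4.47, SE 0.40, adjusted p = 2.58e-06). The canalicular exporter ABCC2 went from 133, 123 and 102 CPM to 22.0, 14.9 and 19.7 CPM. ABCC4, a basolateral exporter, was the 1 that rose, 1.98-fold in 1 of its probes, and was not called without C3 replicate 1 (adjusted p = 0.0597).

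Transcripts of energy and nitrogen metabolism fell less evenly. Of 25 probes for fatty acid oxidation and ketone synthesis, 8 were lower and 1 higher (36% called, beside 11.6% of all features, median -0.76). FABP1, given above, was the member with the smallest p, while CPT1A, HADHA and HADHB of the core pathway had log2 changes of 0.11, -0.10 and -0.07 that did not pass. PDK4, which holds back pyruvate oxidation, rose 2.17-fold and was not called without C3 replicate 1. In the urea cycle and amino acid breakdown, 6 of 25 probes were lower and 0 higher (24% called, median -0.43). AGXT, the peroxisomal glyoxylate aminotransferase, was at 1077, 877 and 894 CPM in the C1 libraries and 65.9, 53.3 and 50.4 CPM in the C3 libraries, and ARG1, the arginase that releases urea, fell from 64.1, 53.8 and 47.3 CPM to 2.20, 1.49 and 3.07 CPM. Both sets of libraries were far apart, with drops of 16.8-fold and 24.3-fold. HPD of tyrosine breakdown and CPS1, the first enzyme of the urea cycle, fell by 3.01 and 2.71 on the log2 scale, but TDO2 and ASL did not pass.

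Gluconeogenesis and sterol genes gave a like picture. Of 18 probes for gluconeogenesis and glycogen, 7 were lower and 0 higher (5 lower without C3 replicate 1, median -1.05). Of this list 38.9% was called, beside 11.6% of all features. Among the falling were the liver glycogen synthase GYS2, from 34.3, 33.5 and 25.9 CPM to 2.74, 2.98 and 2.30 CPM, and PPP1R3B, its activating subunit of protein phosphatase, 4.45-fold lower. Of 16 glycolysis probes 12.5% were called, near the 11.6% of all features. PKM, the pyruvate kinase of non-liver tissues, rose 1.63-fold (log2 change 0.70, SE 0.17, adjusted p = 0.0125) and PFKL, the liver phosphofructokinase, was 7.39-fold lower at low counts (adjusted p = 0.00115). Of 26 probes for cholesterol synthesis and uptake, 6 were lower and 0 higher (23.1% called, median -0.52). MSMO1, a sterol demethylase, was at 4255, 4536 and 3514 CPM in the C1 libraries and 1595, 2136 and 2084 CPM in the C3 libraries, 2.12-fold lower and without overlap, while SQLE, the squalene epoxidase, had a log2 change of -0.07 that did not pass.

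**Figure D4:**
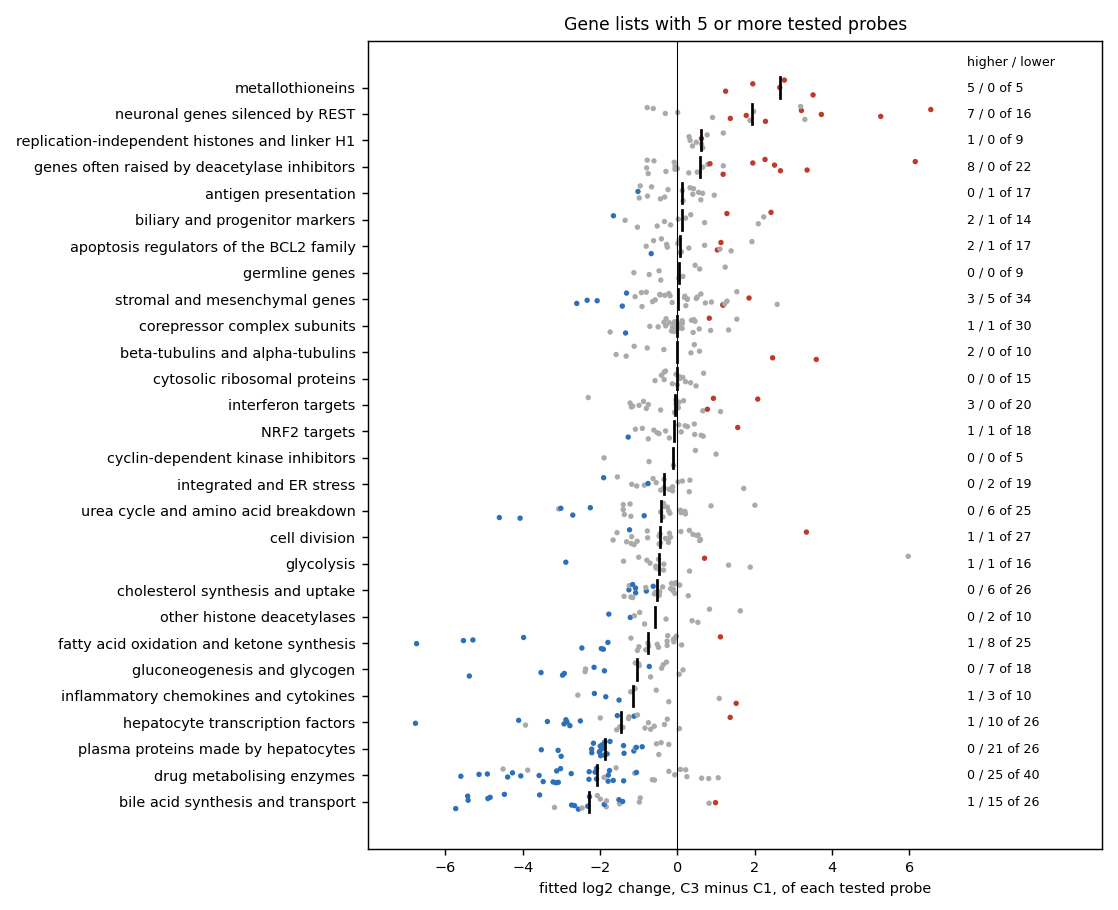
Fitted log2 change of C3 against C1 for every tested probe (points) of the gene lists with 5 or more tested probes, ordered by their median (black bars), with called probes in red (higher) or blue (lower) and the counts at the right. Bile acid, drug metabolism and plasma protein lists lie lowest, with 15 of 26, 25 of 40 and 21 of 26 probes lower, beside 5.14% of all features. Metallothioneins and REST-silenced neuronal genes lie highest, where the fitted change of a probe near 0 at C1 is no measured fold.

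Cell cycle and stress lists had shares of called probes below or near the 11.6% of all features, with 7.41% for cell division, 10.5% for integrated and endoplasmic reticulum stress and 11.1% for NRF2 targets, and the BCL2 family had 17.6%. Of 27 probes for cell division, TYMS, the thymidylate synthase, was lower at 618, 872 and 564 CPM in the C1 libraries and 320.3, 242 and 309 CPM in the C3 libraries (log2 change -1.24, SE 0.21, adjusted p = 0.000815), and 1 of the 2 probes of RRM2 was higher at very low counts, with an adjusted p of 0.0473, or 0.2 without C3 replicate 1. The other RRM2 probe, at 64.5 and 68.7 CPM, had a log2 change of 0.09. MKI67, CDK1 and TOP2A, which mark cycling cells, had log2 changes of -0.45, -0.31 and -0.78 that did not pass. None of 5 tested probes for cyclin-dependent kinase inhibitors was called, CDKN2C having the largest change (-1.90, adjusted p = 0.074). In the BCL2 family of cell death regulators, 2 of 17 probes were higher and 1 lower. BCL2L11, the killer BIM, was at 54.8, 47.6 and 47.6 CPM in the C1 libraries and 141, 80.3 and 86.8 CPM in the C3 libraries and BMF at 20.1, 11.4 and 24.2 CPM and 44.7, 39.1 and 37.6 CPM. Their groups did not overlap, but without C3 replicate 1 neither was called (adjusted p = 0.0705 and 0.0611), whereas the fall of BAX, 1.60-fold, was.

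Of 19 probes for the integrated and endoplasmic reticulum stress responses, 0 were higher and 2 lower (median -0.34). TRIB3, a pseudokinase induced by ATF4, went from 332, 384 and 225 CPM to 47.5, 113 and 90.1 CPM, and the chaperone HSPA5 was 1.69-fold lower (adjusted p = 0.0328). ATF4, DDIT3 and ASNS were not called. Of 18 NRF2 target probes, SRXN1, the sulfiredoxin that repairs peroxiredoxins, was at 96.6, 130.3 and 125 CPM in the C1 libraries and 307, 338 and 395 CPM in the C3 libraries. It was separate between groups (log2 change 1.56, SE 0.20, adjusted p = 6.88e-05) and rose further at C5 (775 CPM), but FTL, the ferritin light chain, fell 2.41-fold, and NQO1, HMOX1 and GCLC were not called.

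Inflammatory mediators differed among themselves. Of 10 probes, 3 were lower and 1 higher (40% called, beside 11.6% of all features, median -1.15). The neutrophil chemokine CXCL2 was at 706, 761 and 661 CPM in the C1 libraries and 203, 143 and 135 CPM in the C3 libraries. It was 4.43-fold lower without overlap (log2 change -2.15, SE 0.22, adjusted p = 9.52e-06), CXCL1 3.61-fold and CX3CL1 2.84-fold. CCL20, which draws CCR6-positive lymphocytes, rose 2.87-fold (adjusted p = 0.00495), and CXCL8 did not pass (log2 change -0.55). Of 20 interferon target probes, 3 were higher and 0 lower (15% called, beside 11.6% of all features), against a median of -0.05. OASL was at 5.38, 4.85 and 10.2 CPM in the C1 libraries and 52.7, 17.6 and 16.4 CPM in the C3 libraries, so that C3 replicate 1 stood far above its group mates, and it was not called without that library (adjusted p = 0.0602). IFI6 rose 1.72-fold, a call lost under 8 of the alternative settings, while MX1, IFIT1 and ISG15 were not called. Of 17 antigen presentation probes (5.88% called, below the share of all features), PSMB8, of the immunoproteasome, was 2.03-fold lower and the others did not pass.

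Markers of the other cells that a HepaRG culture can hold went both ways. Of 14 biliary and progenitor probes, 2 were higher and 1 lower (21.4% called, beside 11.6% of all features, median 0.12). SPP1, or osteopontin, was at 3.91, 12.4 and 4.23 CPM in the C1 libraries and 26.3, 44.0 and 41.5 CPM in the C3 libraries and SOX9, a biliary transcription factor, at 21.8, 21.9 and 26.9 CPM and 52.1, 50.2 and 69.6 CPM. Neither overlapped between groups (5.37-fold and 2.43-fold higher), but the biliary keratin KRT19 had log2 changes of 0.03 and 0.21, EPCAM had at most 1 count in any library, and MMP7, a protease of biliary epithelium, was lower (log2 change -1.65, SE 0.31, adjusted p = 0.00179). Of 34 stromal and mesenchymal probes, 3 were higher and 5 lower (23.5% called, beside 11.6% of all features). CDH2, the N-cadherin that hepatocytes also carry, was at 141, 157 and 124 CPM in the C1 libraries and 323, 317 and 314 CPM in the C3 libraries, 2.26-fold higher, and IGFBP3 rose 3.62-fold. The matrix gene DCN was at 47.0, 29.5 and 42.6 CPM in the C1 libraries and 5.76, 7.01 and 10.8 CPM in the C3 libraries, 5.04-fold lower, and COL3A1 fell as well, whereas COL1A1, LUM and FN1 were not called. The part of these cell types in the falls of hepatocyte genes was not tested. TUBA1A, a neuronal alpha-tubulin, rose by both of its probes (log2 changes 2.47 and 3.60, the latter from the floor at C1 and not called without C3 replicate 1). The other 8 tubulin probes were not called, so that 20% of that list was called, beside 11.6% of all features. Of 15 probes for cytosolic ribosomal proteins none was called (adjusted p of 0.19 or more, median 0.00).

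Tacedinaline, the other benzamide of the series, was measured at other concentrations, so its values stand beside these without a comparison. Between 1.143333 and 10.29 µM tacedinaline, 678 features were higher (5.44% of 12461) and 805 lower (6.46%). For FABP1 the change was -4.58 there and -5.53 for mocetinostat on the log2 scale, for BAAT -4.88 and -5.41, and for SCG2 3.55 and 3.73. LGSN changed by 3.19 and 5.40, and CYP3A4 by -2.41 and -5.13. HSPA2 had 0.36 with tacedinaline (adjusted p = 0.612) beside 2.51 with mocetinostat.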

How the data were processed

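The authors deposited raw read counts per TempO-Seq detector probe, as whole numbers without normalisation, for 118 libraries, and the submitters' processing notes name bcl2fastq 2.20.422, fastp 0.23.2, STAR 2.7.10b and DESeq2 1.38.0, without their role. The genome build of the alignment is not given in the sources used here, so coordinates are printed only for RefSeq promoters. The paper named with these data describes other chemicals and was not used for values. Of 22069 rows, 1 (SEC13, the last) was incomplete and was left out, and 18807 of 19470 symbols match RefSeq. Every column belonged to a sample.

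The 15 mocetinostat libraries (C1 to C5, n = 3 each) were fitted together in R 4.3.3 with edgeR 4.0.16, using filterByExpr on the group, TMM scaling (edgeR's trimmed mean of M values), glmQLFit and glmQLFTest, with C3 minus C1 as the contrast and no batch term. P-values were adjusted by Benjamini-Hochberg over all 13065 features. The fold change minimum was 1.5 and the adjusted p threshold 0.05. Standard errors are the absolute log2 change over the square root of F. Where no library of a group exceeded 3 counts, the group was taken to be at the floor and the fold given as a bound, which covers counting error only because the reads carry no molecular identifiers. The script was tested on simulated data.

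Replicate numbers mark shared HepaRG batches per the labels and so pair the samples. The deviations of C1 and C3 libraries of the same batch correlated at -0.144, 0.156 and -0.160, and the fit with the batch as a block was an alternative. Alternatives were DESeq2 1.42.0, other size factors, no filter, the C1 and C3 libraries alone, thinned counts, probes summed per symbol, a fold minimum of 2, each batch or library left out, and, added after seeing the data, the fit without C2 replicates 1 and 2 and C3 replicate 1.

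The text names the 10 rising and 10 falling called features with the largest change, at least 100 counts on average in the higher group and the same direction in 3 batches, the 5 of each direction with the smallest p, up to 3 called features of each of 33 gene lists with any member the list turns on, 6 features called at C2, and the class I deacetylases. Some features that these rules gave are not reported here. Members, gene lists and tests were chosen with earlier results of these data known. Of 643 list symbols 613 were in the table. None of the 13 mitochondrially encoded RNAs on a list had a probe. Of 11 endothelial and 15 blood cell genes, 1 (KDR) and 4 probes were tested, and none was called (KDR, adjusted p = 0.25; CD68, adjusted p = 0.21).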

Additional observations from a re-analysis of the deposited data

How the results depend on the processing

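The count of 1513 called features kept within 1.5 times under DESeq2 (1858), relative log expression size factors (1443), no filter (1341), the C1 and C3 libraries alone (1406, of which 45% were higher against 55.7% in the fit on 15 libraries), thinned counts (1415) and probes summed per symbol (1427). With the replicate block it was 1436 (778 higher and 658 lower), and the block moved no count by over 1.5 times. Leaving out libraries lowered it. Over the settings that left out 1 batch or 1 library it ranged from 272 to 1196, with 113 to 623 higher and 159 to 629 lower. It was 785 without batch 1, 272 without batch 2 and 1005 without batch 3, 881 and 918 without C1 replicates 1 and 3, and lower calls were 442 without C3 replicate 3. The cause was not tested. Without the 3 libraries that stood apart, it rose to 2524 (1319 higher and 1205 lower), with 1407 of the 1513 in the same direction and 0 in the opposite one. Of 86 called features that the naming rules gave, 54 kept their call under every alternative other than the fold minimum of 2, and no log2 change of a called one reversed. That minimum was applied to the counts of calls only, and numbers of settings given for single features leave it out. Calls lost often were those of RRM2 (14 settings), H2AFY (12) and IFI6 (8). HDAC2, HDAC3 and HNF4A were lost under 2 each, and the rises of HDAC2 and HDAC3 also lie under the fold minimum of 2. Depth limits features of a few counts, for which a change under the threshold was not detectable.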

Other observations

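The following features were picked from the called ones after their values had been seen. They stand for themselves, since no count was made over the families they belong to. KNG1, the kininogen, was at 212, 131 and 200.04 CPM in the C1 libraries and 15.9, 13.6 and 8.96 CPM in the C3 libraries (log2 change -3.82, SE 0.44, adjusted p = 2.65e-05). KLKB1, the prekallikrein that cleaves it, and CPB2, an inhibitor of clot lysis, fell by 2.50 and 2.35 on the log2 scale. In the complement system C1S was at 2167, 2049 and 1774 CPM in the C1 libraries and 310.4, 600.3 and 602 CPM in the C3 libraries, without overlap (log2 change -1.99), and CFI, C1R, CFB and C4B fell by 1.74, 1.95, 1.60 and 2.04. C9 did not pass at 4.22 and 1.08 CPM. The acyl-CoA synthetases ACSM2A and ACSM2B, near copies of each other, fell by 4.97 and 5.01 and GLYAT, the glycine acyltransferase that follows them in benzoate detoxification, by 5.17. CXCL13, a B cell chemokine, was at 477, 391 and 386 CPM in the C1 libraries and 14.0, 14.9 and 17.9 CPM in the C3 libraries.

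Of the rising features, S100A8, a calcium-binding protein, was at 308, 319 and 286 CPM in the C1 libraries and 1389.9, 1632 and 1319 CPM in the C3 libraries and its partner in calprotectin, S100A9, at 107, 139 and 168 CPM and 823, 558 and 557 CPM. Neither overlapped between groups (log2 changes 2.25 and 2.23). ANXA1, an annexin that restrains inflammation, was at 694, 1054 and 807 CPM in the C1 libraries and 4601, 3909.7 and 3586 CPM in the C3 libraries (log2 change 2.24, SE 0.20, adjusted p = 2.37e-06). DEFB1, an epithelial defensin, the apoptosis inhibitor BIRC3 and the potassium channel KCNN2 had log2 changes of 2.53, 1.73 and 2.37. NCAM1 and CNTN1, adhesion molecules of neurons, rose on the log2 scale, NCAM1 by 2.28 and CNTN1 by 2.48 and 2.69 in its probes. AHR, the dioxin receptor, was at 40.1, 58.0 and 49.6 CPM in the C1 libraries and 102, 137 and 144 CPM in the C3 libraries (log2 change 1.38), while its target CYP1A1 was not called. All features given here as rising or falling were called again without C3 replicate 1.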
